A study of Mus musculus with 6 samples.

Results

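Desmosome genes were examined in surface ectoderm (SE), the outer layer of the embryo that forms the epidermis, and in neural ectoderm (NE), the source of brain and spinal cord. The group comprised 10 genes, chosen by symbol: the desmosomal cadherins Dsg2, Dsc2 and Dsc3, the plakophilins Pkp1, Pkp2, Pkp3 and Pkp4, plakoglobin (Jup), desmoplakin (Dsp) and the tetraspan membrane protein gene Perp. Every array probe whose symbol in the platform annotation was one of these was taken, which gave 18 probes for 9 of the 10 genes, among 19057 genes named on the array. No probe carried the symbol Dsp in the annotation used, which does not name every probe, and desmoplakin was not analysed here. Probes under older gene names were not taken, so the array may still hold a probe for it. Dsg2 had 4 probes, Pkp2 had 3, Pkp4 had 5 and each of the other 6 genes had 1.

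RNA came from 3 SE and 3 NE samples, each a pool of tissue dissected at the level of the forebrain from wild-type CD-1 embryos. All were labelled as stage E8.5, and each pool was hybridized to 1 single-colour Illumina MouseWG-6 v2 bead array. Pancreatin and trypsin were used to separate the layers, and the methods state that the mesenchyme of the head was left out. The study compared the tissues to find pathways and transcription factors that separate SE from NE fate during neurulation, the process that folds and closes the neural tube.

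Desmosomes are button-like junctions that rivet epithelial cells to each other and anchor the keratin filaments inside them. Desmogleins and desmocollins span the membrane and bind those of the neighbouring cell. Plakoglobin and the plakophilins, which share armadillo repeats, hold the cadherin tails, and desmoplakin links this plaque to keratin. Desmosomes are typical of epidermis and other epithelia and of heart muscle, whereas neuroepithelial cells are joined mainly by adherens junctions.

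Signals are the deposited intensities on a linear scale, with no normalization, and a probe counts as detected where its detection p-value was under 0.05. Between 18916 and 19068 probes were detected on the SE arrays and between 19174 and 19402 on the NE arrays, of 45281. The lowest signal of a detected probe lay between 68.1 and 69.9 on SE arrays and between 66.8 and 70.2 on NE arrays. For the comparison, background was subtracted by a model, the arrays were brought to a common distribution by quantile normalization, 16 was added and log2 was taken. Of all probes 19590 reached detection on 3 or more arrays. These were tested with limma, with p-values adjusted over all of them. A fold is 2 raised to the difference of the mean log2 values, SE minus NE, and understates the change of dim probes because of the added 16. Markers went the way of the tissue labels. At an adjusted p under 0.05, 11 of 11 tested SE markers were higher in SE and 10 of 10 tested NE markers were lower. Of all genes tested 18.7% were higher and 21.6% were lower. Krt19 and Trp63 passed the filter through SE alone, and Rax, Lhx2, Lhx5 and Hesx1 through NE alone, so these had to differ. The study reported Foxi2 and Grhl2 as SE genes from these same arrays, so they are no independent check. Each marker gene was judged by 1 probe, the brightest. The SE marker Epcam, measured by 1 probe, and the NE marker Pax6 were detected on no array. Genes of head mesenchyme (7 of 7 tested) and blood (5 of 6 tested) were also higher in SE. For endothelium 1 of 5 tested genes was higher, near the 18.7% of all genes, and 4 did not pass. Among the mesenchyme genes, Alx1, Alx4 and Dcn passed the filter through SE alone. Summed background-corrected signals ranged from 1551 to 2342 in SE and 283 to 419 in NE for the mesenchyme list, and from 4233 to 7902 in SE and 761 to 2237 in NE for the blood list. The mesenchyme collagens Col1a1 and Col1a2 were detected on no array. The endothelium sum ranged from 1774 to 2102 in SE and from 1306 to 1532 in NE. The part of these cells in the results below was not tested. Fewer cells of a type and less RNA per cell cannot be told apart in such pooled tissue.

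Dsg2 and 3 plakophilin genes, Pkp1, Pkp2 and Pkp3, were higher in SE than in NE, whereas 3 of the 5 probes of Pkp4 overlapped between the tissues. Of the 13 desmosome probes tested, 9 were higher in SE and 0 were lower at an adjusted p under 0.05 from limma, where 17.1% of all probes tested were higher and 20.2% were lower. At an unadjusted p under 0.05 the counts were also 9 and 0, but the share of all probes at that threshold was not taken. By gene, taking for each the tested probe with the highest mean log2 value, 4 of 5 were higher in SE, against 18.7% of the 10603 genes tested. All 3 SE arrays lay above all 3 NE arrays for 9 of the 13 probes, as they did for 23.1% of all probes tested. At over 3-fold and an unadjusted p under 0.05, 6 of the 13 were higher in SE, against 2.05% of all. The median difference of the 13 probes was 1.18 on the log2 scale, where that of all tested probes was -0.02. Of the 13, 2 (Dsg2 ILMN_2955047 and the Pkp3 probe) passed the filter through SE alone, with detection on 3 SE and 0 NE arrays, and had to differ. Both are among the 6 over 3-fold, which came from Dsg2, Pkp2 and Pkp3 only. Pkp3 is also 1 of the 4 genes higher in SE. Over all 18 probes without the filter the median was 0.30, where that of the 45281 probes was 0.00.

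**Figure D1:**
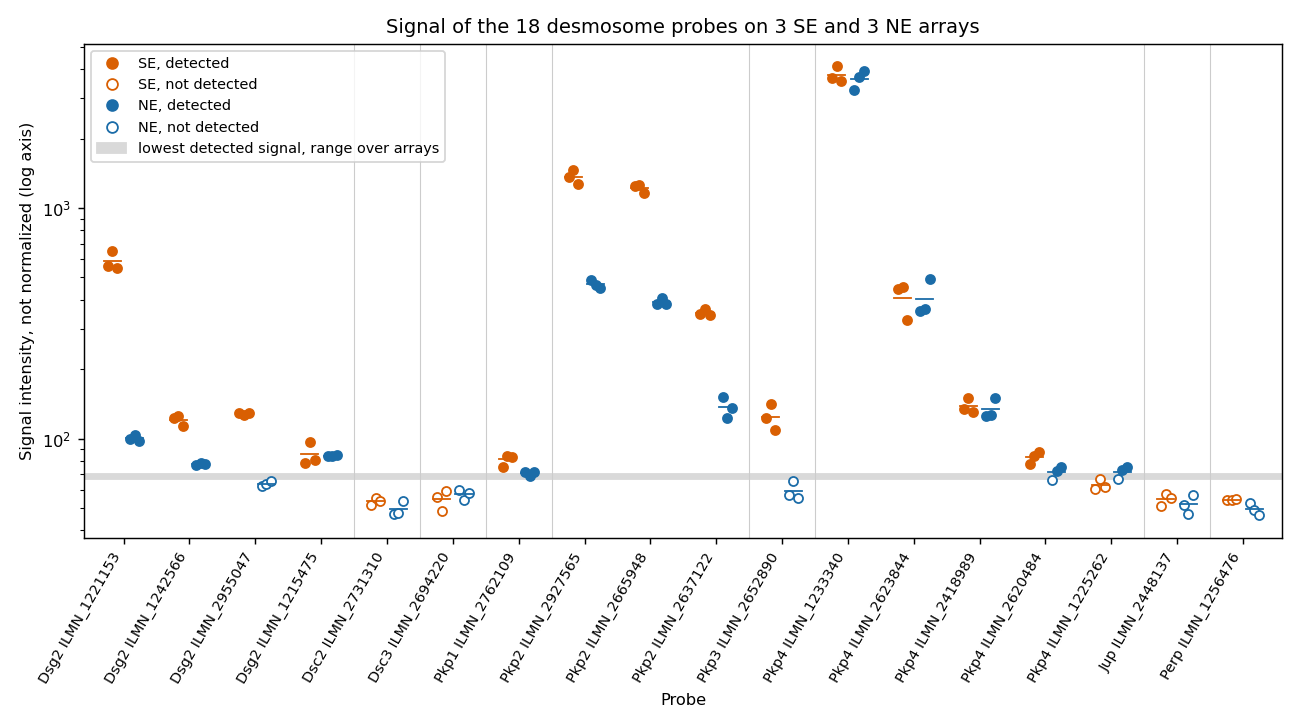
Signal intensity without normalization (log axis) of each of the 18 desmosome probes on the 3 SE arrays (left, orange) and the 3 NE arrays (right, blue), with a line at the mean of each tissue; open points were not detected, and the grey band spans the lowest detected signal of the arrays, 66.8 to 70.2. Pkp2, Pkp3 and 3 of 4 Dsg2 probes stand higher in SE, Dsg2 ILMN_1215475 and 3 of 5 Pkp4 probes overlap between the tissues, and Dsc2, Dsc3, Jup and Perp lie under the band in both.

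Dsg2 encodes desmoglein 2, the desmoglein of simple epithelia and heart muscle. Its probe ILMN_1221153 had signals of 558.7, 652.5 and 548.5 on SE arrays 1, 2 and 3, against 99.2, 103.9 and 97.9 on NE arrays 1, 2 and 3. Every SE array was thus well above every NE array, and the gene was still above background in NE. The mean log2 value was 9.15 ± 0.12 in SE and 5.85 ± 0.13 in NE (SD, n = 3 arrays each). The difference was 3.31 (standard error 0.10, adjusted p = 5.24e-07), a 9.90-fold higher level in SE. This was the largest difference among the desmosome probes tested.

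The other 3 probes of Dsg2, annotated to the same transcript record, gave smaller differences. ILMN_2955047 had signals of 129.3, 126.4 and 128.7 in SE and 62.6, 63.4 and 65.2 in NE. No NE array detected it, so its fold is a bound. It was at least 3.23-fold higher in SE (adjusted p = 1.40e-06), with the SE mean set against the NE mean after each NE array was raised, where lower, to its lowest detected value. ILMN_1242566 had 122.3, 125.1 and 113.4 in SE and 76.7, 78.6 and 77.6 in NE, all detected, and was 2.26-fold higher in SE (adjusted p = 2.26e-05). ILMN_1215475 did not separate the tissues. Its signals were 78.6, 96.9 and 80.6 in SE and 83.7, 84.4 and 85.0 in NE, and 2 of the 3 SE arrays lay below all NE arrays. Its log2 difference was 0.06, with a 95% confidence interval from -0.28 to 0.39 (adjusted p = 0.779). The direction for Dsg2 therefore rests on 3 of its 4 probes, and the differences between probes were not tested.

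Dsc2 and Dsc3 encode desmocollins, the partners of desmogleins in the intercellular bond. Dsc2 (ILMN_2731310) had signals of 51.6, 55.3 and 53.6 in SE and 47.3, 47.5 and 53.5 in NE. Dsc3 (ILMN_2694220) had 55.6, 48.5 and 59.4 in SE and 59.9, 54.3 and 58.3 in NE. Neither was detected on any array, and the tissues overlapped for both. The genes from Dsc3 to Dsg2 follow each other as 1 block in RefSeq, with 7 protein-coding genes between them, each a desmocollin or desmoglein: Dsc1, Dsg1c, Dsg1a, Dsg1b, Dsg4 and Dsg3 beside Dsc2. Of these further cadherins, Dsc1, Dsg1a, Dsg1b, Dsg1c and Dsg3, several of them typical of stratified epidermis, were detected on no array at the probe with the highest mean. Dsg4, known from hair follicles, was detected on 1 SE and 2 NE arrays with a log2 difference of -0.20 (adjusted p = 0.133). Only Dsg2 and Dsg4 of this block were thus tested, and Dsg2 passed, with each further cadherin judged by 1 probe. The genes detected on no array had no test to pass.

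Pkp2 encodes plakophilin 2, the plakophilin of simple epithelia and of the heart. Its 3 probes gave much the same difference. ILMN_2927565 had signals of 1358.0, 1458.4 and 1265.9 in SE and 489.4, 462.0 and 449.8 in NE, and was 3.32-fold higher in SE (adjusted p = 3.81e-06). ILMN_2665948 had 1247.3, 1257.8 and 1156.8 in SE and 384.0, 407.7 and 385.3 in NE, and was 3.65-fold higher (adjusted p = 1.46e-06). The remaining probe, ILMN_2637122, had 345.6, 363.1 and 344.3 in SE and 151.7, 122.9 and 136.0 in NE, and was 3.50-fold higher (adjusted p = 2.95e-05). All 9 signals in SE lay above the NE signals of the same probe, and all 3 probes were detected on every array. The log2 differences were 1.73, 1.87 and 1.81, with standard errors of 0.083, 0.073 and 0.13, and the spread between probes was not tested.

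Pkp2 was thus present in NE as well. Among the tested markers of SE, differences ran from 1.93-fold for Grhl3 to 52.2-fold for the forkhead gene Foxi2, both detected on all 3 NE arrays. Between them, Tfap2a was 4.74-fold, Tfap2c 6.65-fold and Krt8 14.02-fold higher in SE. Trp63, which encodes the epidermal regulator p63, had no NE array with detection, and its level in SE was higher by at least 21.1-fold. Whether SE cells in the NE pools add to the NE signals of Pkp2 and Dsg2 was not tested.

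Pkp3 encodes plakophilin 3, found in most desmosomes of simple and stratified epithelia. Its probe ILMN_2652890 had signals of 122.8, 140.9 and 109.5 in SE and 56.9, 65.3 and 55.4 in NE. All 3 SE arrays and 0 NE arrays detected it. It was at least 3.03-fold higher in SE (adjusted p = 3.28e-05), with mean log2 values of 6.40 ± 0.23 in SE and 4.48 ± 0.17 in NE (SD, n = 3 arrays each).

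Pkp1 encodes plakophilin 1, best known from the upper layers of stratified epidermis. Its probe ILMN_2762109 had signals of 75.5, 84.5 and 83.6 in SE and 71.7, 68.8 and 71.5 in NE, close to the limit of detection in both tissues. The detection p was 0.00871, 0.0498 and 0.0271 on NE arrays 1, 2 and 3. The SE arrays lay just above the NE arrays, by 0.45 on the log2 scale (standard error 0.11), or 1.37-fold (adjusted p = 0.0129).

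Pkp4 encodes plakophilin 4, also called p0071, which is related to p120 catenin and is found at adherens junctions as well as desmosomes. Its probe ILMN_1233340 had signals of 3674.3, 4110.8 and 3541.7 in SE and 3260.0, 3704.8 and 3933.1 in NE. The tissues overlapped, and the log2 difference was 0.15, with a 95% confidence interval from -0.06 to 0.37 (adjusted p = 0.241). ILMN_2623844 had 444.8, 454.4 and 326.0 in SE and 356.3, 365.8 and 492.2 in NE, with replicate 3 the lowest of SE and the highest of NE, and a difference of 0.12 (interval from -0.24 to 0.48, adjusted p = 0.574). ILMN_2418989 had 134.0, 149.7 and 130.5 in SE and 125.9, 127.0 and 150.5 in NE, again overlapping, with a difference of 0.15 (interval from -0.09 to 0.38, adjusted p = 0.286).

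The remaining 2 probes of Pkp4 were near background and went opposite ways. ILMN_2620484 had 77.5, 84.3 and 87.4 in SE and 66.2, 72.2 and 75.7 in NE, was detected on 3 SE and 2 NE arrays, and was 1.42-fold higher in SE (adjusted p = 0.0106). ILMN_1225262 had 60.5, 67.0 and 61.7 in SE and 66.7, 73.3 and 75.6 in NE. It was detected on 0 SE and 2 NE arrays, too few to be tested. The 5 probes were annotated to 3 transcript records, with ILMN_1225262 and ILMN_2418989 each to a record of its own and the other 3 sharing one.

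**Figure D2:**
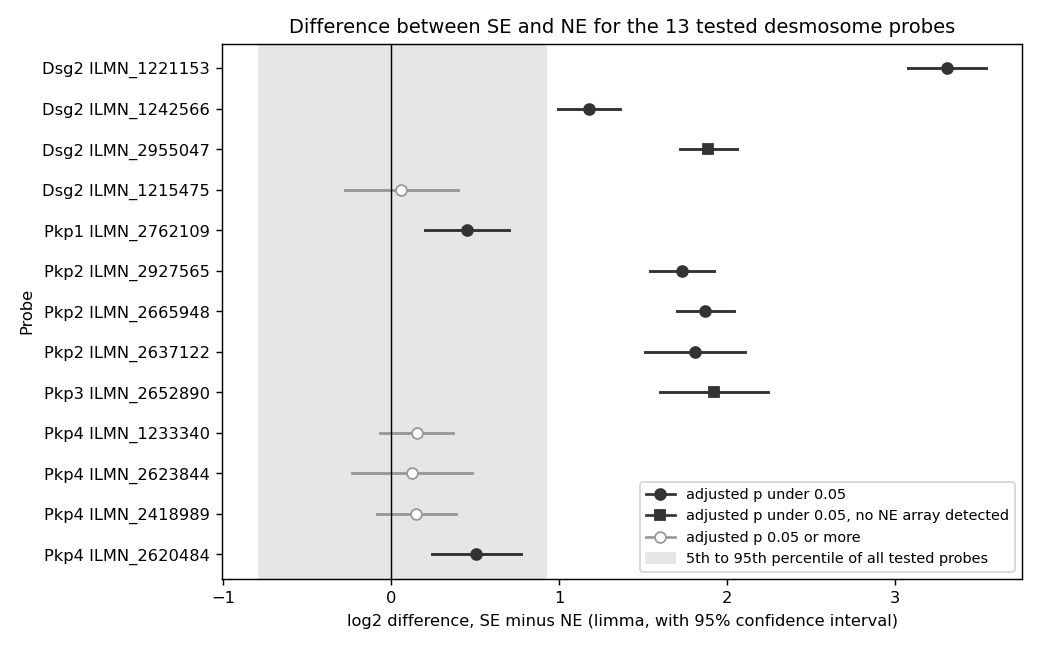
Log2 difference, SE minus NE, of the 13 tested desmosome probes with its 95% confidence interval from limma; dark marks passed an adjusted p under 0.05, squares were detected on no NE array, and the grey span holds the 5th to 95th percentile of all tested probes, -0.79 to 0.92. Dsg2, Pkp2 and Pkp3 probes reach 1.18 to 3.31, apart from 1 Dsg2 probe at 0.06, while 3 of 4 Pkp4 probes lie at 0.12 to 0.15.

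Jup encodes plakoglobin, the armadillo protein that desmosomes share with adherens junctions. Its probe ILMN_2448137 had signals of 51.2, 57.6 and 55.4 in SE and 51.6, 47.1 and 56.8 in NE, and was detected on no array. The arrays of the tissues overlapped. For Perp, a target of p63 needed for desmosomes in stratified epithelia of the mouse, ILMN_1256476 had 54.0, 54.3 and 54.9 in SE and 52.4, 49.2 and 46.6 in NE, also detected on no array. Its SE arrays lay above its NE arrays, all below the lowest detected signal. Over the 4 undetected genes, Dsc2, Dsc3, Jup and Perp, signals ran from 46.6 to 59.9 and detection p-values from 0.209 to 0.976. Each had 1 probe, so that a low transcript level and a probe that responds poorly cannot be told apart, and no level or difference is given for them. Among the probes matched by symbol, 5 of the 10 desmosome genes could be compared.

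Heart muscle is another tissue with Dsg2 and Pkp2. Of its 13 marker genes with a probe, 7 were detected on no array, among them Myl7, Myl2 and Tnni3. Of 4 tested, 3 were higher in SE, where 18.7% of all genes tested were higher. These were Myl4, Tnnc1 and Nkx2-5, by 1.55-fold, 1.72-fold and at least 1.39-fold. Nkx2-5 passed the filter through SE alone and had to differ. The summed signal of the heart list ranged from 343 to 485 in SE and from 244 to 269 in NE. Endoderm is an epithelium as well. Its list had 12 genes with a probe, of which 4, Afp, Apoa4, Apob and Rbp4, were detected on no array. Of 6 tested, 1 was higher and 3 were lower in SE, where 18.7% of all genes tested were higher and 21.6% were lower. Among the 3 lower genes, Foxa1 and Foxa2 passed the filter through NE alone and had to differ. The endoderm sum was 194 to 230 in SE and 576 to 806 in NE. The part of either tissue in the desmosome signals was not tested.

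Genes whose products work beside desmosomes were set against these values in lists of their own. Of the plakin genes, Ppl (periplakin), a relative of desmoplakin, was at least 13.9-fold higher in SE (adjusted p = 1.14e-07 from limma). Ppl passed the filter through SE alone and had to differ. Evpl (envoplakin), the partner of Ppl in the cornified envelope, was 1.99-fold higher (adjusted p = 9.97e-04), with detection on 2 of 3 NE arrays. The plakin genes Plec and Dst, in the hemidesmosome list below, were lower in SE. Ppl, Evpl and Dsg4 were the 3 genes tested of 10 further desmosomal and envelope genes. Keratins form the filaments that desmosomes hold. Of 14 keratin genes on the array 7 were tested, and all 7 were higher in SE, against 18.7% of all genes tested. Krt14, Krt17, Krt19 and Krt23 passed the filter through SE alone, with detection on 3 SE and 0 NE arrays, and had to differ. The examples with the largest differences were Krt7, Krt8 (14.02-fold) and Krt19 (at least 10.9-fold). Krt7 had signals of 916.6, 828.6 and 774.0 in SE and 70.1, 64.5 and 61.2 in NE, with detection on 1 of 3 NE arrays, so that its fitted 32.0-fold rests on values near background. The epidermal keratin Krt5 was detected on no array, while its partner Krt14 was at least 8.28-fold higher in SE. The median log2 difference of the tested keratins, with those detected in SE alone included, was 3.38.

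Adherens junction genes were divided. Of 10 tested, 5 were higher in SE, 2 were lower and 3 did not pass, where 18.7% of all genes tested were higher and 21.6% were lower. The classical cadherins Cdh3 and Cdh1 were at least 20.6-fold and 9.96-fold higher in SE, and the adhesion receptor Nectin2 was 2.70-fold higher. Of the 5, Cdh3 passed the filter through SE alone and had to differ. Cdh2, the N-cadherin of neural tissue, was detected on 0 SE and 2 NE arrays, with signals of 50.7, 61.7 and 55.4 in SE and 83.1, 66.5 and 92.5 in NE, and was not tested. Nectin1 and Nectin3 did not pass, at log2 differences of -0.30 and 0.07 (adjusted p = 0.233 and 0.619 from limma). The cytoplasmic partners went both ways. Vcl was 1.64-fold higher in SE (adjusted p = 6.80e-04 from limma), while Ctnna2 and Afdn were 1.32-fold and 1.23-fold lower (adjusted p = 0.0356 and 0.0221). Ctnnb1, the closest relative of plakoglobin, had a difference of -0.03 on the log2 scale (adjusted p = 0.815) at its probe of highest mean, and Ctnna1 was 1.20-fold higher in SE (adjusted p = 0.034). The p120 catenin family, to which Pkp4 is related, had 3 tested genes, Ctnnd1, Ctnnd2 and Arvcf, and none passed, at differences of 0.22, -0.14 and -0.11 (adjusted p = 0.134, 0.299 and 0.518, limma, n = 3 arrays a tissue; 0 of 3 at an adjusted p under 0.05). In the hemidesmosome list, whose products anchor keratin to the basement membrane, 3 of 6 tested genes were higher in SE and 2 were lower, against the same 18.7% and 21.6% of all genes, with Lamb3 2.00-fold, Cd151 1.90-fold and the integrin gene Itgb4 1.71-fold higher in SE, and Dst 1.59-fold and Plec 1.25-fold lower. Lamb3 was detected on 2 of 3 NE arrays.

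**Figure D3:**
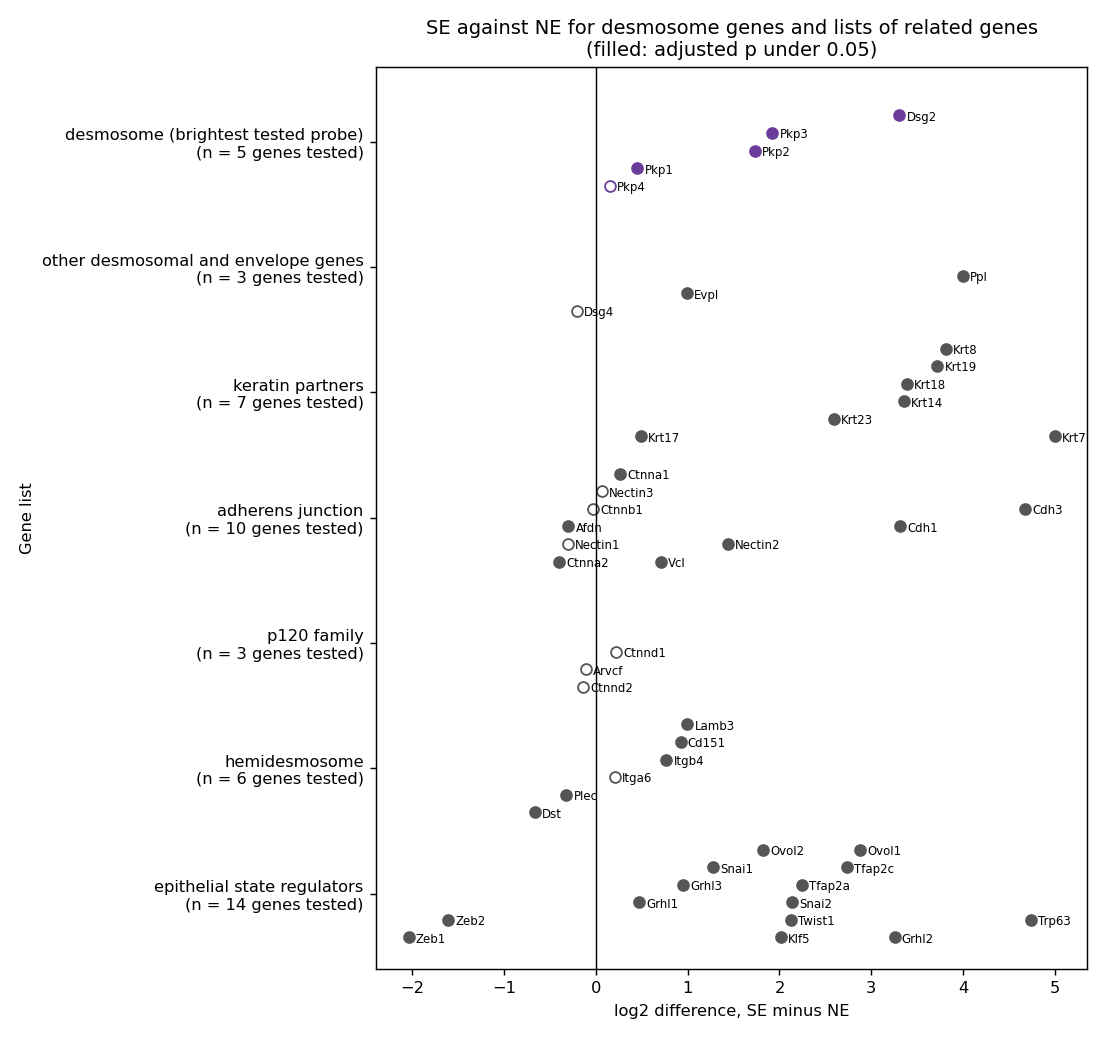
Log2 difference, SE minus NE, of each tested gene, by the tested probe with the highest mean, for desmosome genes (purple) and lists of related genes (grey); filled points passed an adjusted p under 0.05. Of the 5 desmosome genes 4 are filled and higher in SE, the 7 keratins all lie to the right, and the 3 genes of the p120 family lie around 0 beside Pkp4.

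The size of the differences depended on how background was treated. Without background correction the log2 difference fell to 2.45 for Dsg2 ILMN_1221153, against 3.31 as reported, and to 0.88, against 1.89, for ILMN_2955047. For Pkp3 it was 0.91, against 1.92, and for the 3 Pkp2 probes it lay between 1.34 and 1.71, against 1.73 to 1.87. In the deposited scaled values, which carry no background correction, the differences were 2.61 and 1.08 for these Dsg2 probes and 1.14 for Pkp3. The number of desmosome probes over 3-fold was 3 in place of 6 under either setting. In both, all 9 probes kept their direction and an adjusted p under 0.05.

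**Figure D4:**
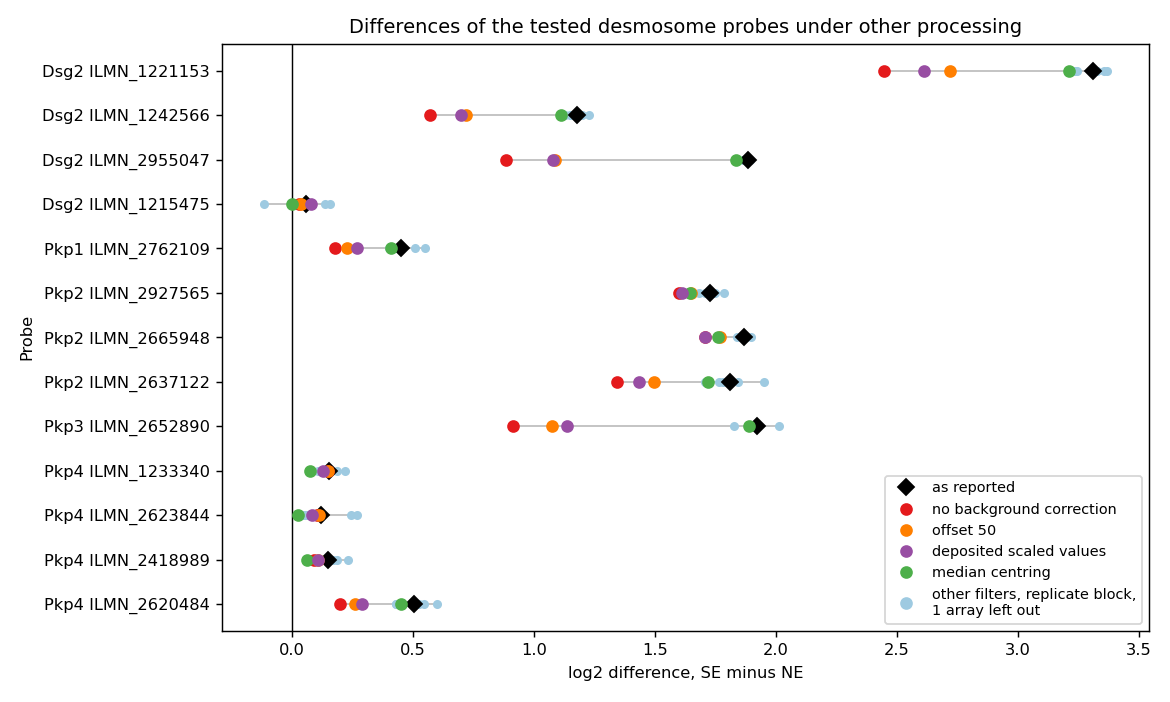
Log2 difference, SE minus NE, of the 13 tested desmosome probes as reported (black diamonds) and under other processing (circles), with a grey line over the whole range of each probe. Dsg2 ILMN_2955047 (0.88 to 1.89) and Pkp3 (0.91 to 2.01), both near background in NE, span wide ranges, and 1 probe, Dsg2 ILMN_1215475, crosses 0.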

How the data were processed

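Per the methods the arrays were read on a BeadArray Reader and exported from BeadStudio (no version: not given in the sources used here). Per probe, the deposited table holds a signal intensity without normalization and a detection p-value from that software. The deposited scaled intensity values equalled these signals times 1 constant per array (0.966 to 1.07), with no centring. Array columns were matched to samples by the sample descriptions.

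Signals were processed with neqc of limma 3.58.1 (R 4.3.3), which models background from the detection p-values, quantile normalizes, adds 16 and takes log2. A probe was tested if its detection p was below 0.05 on 3 or more of the 6 arrays. SE was compared with NE by lmFit and eBayes without a replicate block, with Benjamini-Hochberg adjustment over the 19590 probes. The methods list SE and NE pools of the same number under 1 replicate experiment, which may pair them. Deviations of same-numbered arrays from the tissue means correlated at -0.037, -0.031 and -0.02 across probes, so no shared deviation was measurable, and the block was tried as an alternative. The fit was checked on simulated data. Plots were drawn with matplotlib 3.10.9 under Python 3.11.15.

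Symbols were those of the platform annotation, brought up to date by Entrez identifier where possible (34807 probes). The desmosome probes were matched by the platform symbol as it stood before that update. Of the probes, 34885 had a single symbol, 18 had more than 1 and 10378 had none listed. In lists a gene was represented by its probe of highest mean log2 value, tested probes first. Lists of related genes share members with the marker lists, so their counts are not separate observations. Krt8, Krt18, Krt19, Cdh1, Trp63, Grhl2, Grhl3, Tfap2a and Tfap2c were also SE markers. Cdh2 was also an NE marker and Twist1 a mesenchyme marker. The text names every desmosome probe and the 3 genes with the largest difference of each related list. Other genes of the related lists were picked for naming once their values had been seen (Krt5, Krt14, Krt17, Krt23, Ctnnb1, Ctnna1, Ctnna2, Vcl, Afdn, Cdh2, Nectin1, Nectin3, Dst, Plec, Dsg4). So were the marker genes given with values (Foxi2, Grhl3, Tfap2a, Tfap2c, Myl4, Tnnc1, Nkx2-5). The members and lists were chosen with earlier results of these data known.

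P-values measure the spread among 3 pools a tissue, which the methods describe as biological replicates, and their small number limits precision. In a heat map of the study NE replicates 2 and 3 appear in the other order than in the labels. The labels were kept, and no comparison of all SE with all NE arrays depends on this. The replicate block and the correlations of same-numbered arrays do depend on it. In the other order, SE2 with NE3 and SE3 with NE2, the correlations were -0.008 and 0.023.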

Additional observations from a re-analysis of the deposited data

How the results depend on the processing

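The count of 9 desmosome probes higher in SE ranged from 6 to 9 over 14 alternatives and the count of genes from 3 to 5 over 15. The lowest counts, 6 probes and 3 genes, came with detection required on all 6 arrays, where fewer probes were tested. When 1 array was left out, the counts lay between 7 and 9 probes, 3 and 4 genes, and 4 and 6 probes over 3-fold, and 0 probes were lower in SE. The low ends came from leaving out any 1 SE array, when Dsg2 ILMN_2955047 and Pkp3, detected in SE alone, missed the 3 arrays required. The count over 3-fold was 3 without background correction, 3 with an offset of 50 and 3 in the deposited scaled values. With no detection filter 1 probe, Pkp4 ILMN_1225262, was lower in SE, by a log2 difference of -0.36 (adjusted p = 0.0433 from limma). The difference of Dsg2 ILMN_1215475 ranged from -0.11, without SE replicate 2, to 0.16 when 1 array was left out, and did not pass in any of these fits. Of the 173 values of single probes under alternatives, 172 kept their direction and their side of the threshold. The highest adjusted p of Pkp1 over its alternatives was 0.0484 and that of Pkp4 ILMN_2620484 was 0.0373. With each array centred on its median, 13% of all probes were higher and 24.6% lower in SE, against 17.1% and 20.2%, and 9 desmosome probes were higher.

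With the replicate block, which pairs SE and NE arrays of the same number, 9 desmosome probes and 4 genes were higher in SE, 0 were lower and 6 were over 3-fold, and it changed no call of a desmosome probe. Over all probes 6507 passed with the block, against 7310 without it.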

Other observations

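Transcription factors that set the epithelial state of cells were measured on the same arrays, and 12 of 14 tested were higher in SE and 2 were lower at an adjusted p under 0.05 from limma, where 18.7% of all genes tested were higher and 21.6% lower. Trp63 was at least 21.1-fold higher in SE (adjusted p = 1.14e-07 from limma) and Ovol1 at least 7.25-fold (adjusted p = 7.33e-07). Both passed the filter through SE alone and had to differ. Trp63, Grhl2, Grhl3, Tfap2a and Tfap2c of this list were already counted among the SE markers. Grhl2, a grainyhead-like factor of epithelial junction genes, was 9.54-fold higher (adjusted p = 1.80e-06). The 2 that were lower in SE were Zeb1, by 4.10-fold, and Zeb2, by 3.05-fold, which encode repressors of epithelial genes. Other repressors of that kind went the opposite way, with Snai2 4.41-fold, Snai1 2.43-fold and Twist1 4.35-fold higher in SE, and Snai2 detected on 2 of 3 NE arrays. Snai1, Snai2 and Twist1 are also expressed in head mesenchyme and neural crest. Their values stand beside those of the mesenchyme genes Alx4 (at least 15.4-fold higher in SE) and Dcn (at least 5.58-fold), and the part of such cells was not tested. Zeb1, Zeb2, Snai1, Snai2, Twist1, Alx4 and Dcn were named after their values were seen.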
